A study of Mus musculus with 4 samples.

Results

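The data were 25 Gata6 ChIP-seq peaks at and around Trp63, out of 560 listed on chromosome 16. The same list held 12112 peaks outside the interval described here. Members were all listed peaks whose midpoint lay between 25.2 and 26.3 Mb of chromosome 16 (mouse build mm9), an interval of 1.1 Mb. Trp63 occupies about 25.68 to 25.89 Mb on the plus strand, bounds that are rounded to 0.01 Mb. The interval thus holds a 210-kb gene, 480 kb upstream of it and 410 kb downstream.

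Binding was mapped in primary mouse keratinocytes from dorsal skin of a C57BL6/CBA background. All of them carried the K14deltaNLef1 transgene, in which the keratin 14 promoter of basal epidermal cells drives Lef1 lacking its N-terminal part, and all were infected with a lentivirus that overexpresses Gata6. The 4 libraries comprised 2 Gata6 immunoprecipitations with antibodies from different suppliers, 1 negative control with an antibody to Flag, and 1 input DNA. The genotype label of 1 Gata6 library ends in an additional N and was read as the same genotype. There is no group without the transgene or without Gata6 overexpression, and the labels give no age for the mice. The list holds no value per library, so each comparison below sets the Trp63 interval against other sequence of chromosome 16 and not one library against another.

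Trp63 encodes p63, a transcription factor of the p53 family that is required for stratified epithelia to form and for keratinocyte progenitors to be maintained. Alternative promoters give TAp63, which has an N-terminal transactivation domain, and ΔNp63, which starts inside the gene, lacks that domain and is the main form in basal keratinocytes. Gata6 is a zinc-finger factor that recognises GATA-containing sequences. In a GRCm38 gene table, used for gene order alone, the protein-coding genes before Trp63 are Lpp, which encodes a LIM-domain protein of focal adhesions, and then Tprg. Those after it are P3h2, a prolyl 3-hydroxylase that acts on collagen, and then Cldn1, a tight-junction claudin. Because that table belongs to another build, no peak was assigned to any of these neighbours, nor to either start of Trp63.

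Gata6 peaks were dense around Trp63. The interval held 22.7 peaks per Mb, against 5.73 per Mb over the rest of the span between the first and last peak of chromosome 16, a ratio of 3.97 (95% interval 2.66 to 5.91). The list has no replicates, so neither this difference nor those below were tested, and the intervals given with shares and ratios cover counting error only. It contained 4.46% of the peaks of the chromosome in 1.16% of its span. The 25 members together covered 3434 bp, or 0.312% of the interval.

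Windows of the same length placed end to end along chromosome 16 gave the background. They began before the first listed peak, in a stretch that the density above leaves out, so windows there could only be empty. On the other autosomes windows likewise ran from the first position. The Trp63 window had 25 peaks, against a median of 4 (interquartile range 0 to 9) in the other 87 windows, of which 23 were empty. Among these, 2 windows (2.30%) had at least as many. They held 26 peaks, starting 7.7 Mb before the Trp63 window, and 29 peaks, starting 4.4 Mb after it. The window directly before held 17 peaks and the one directly after held 8, so the density was high on the upstream side as well and lower downstream. Over 2226 such windows on all autosomes, 2208 had fewer peaks than the Trp63 interval and 12 had more. The share of each window to which reads can be mapped was not measured, and its part in these counts was not tested.

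**Figure D1:**
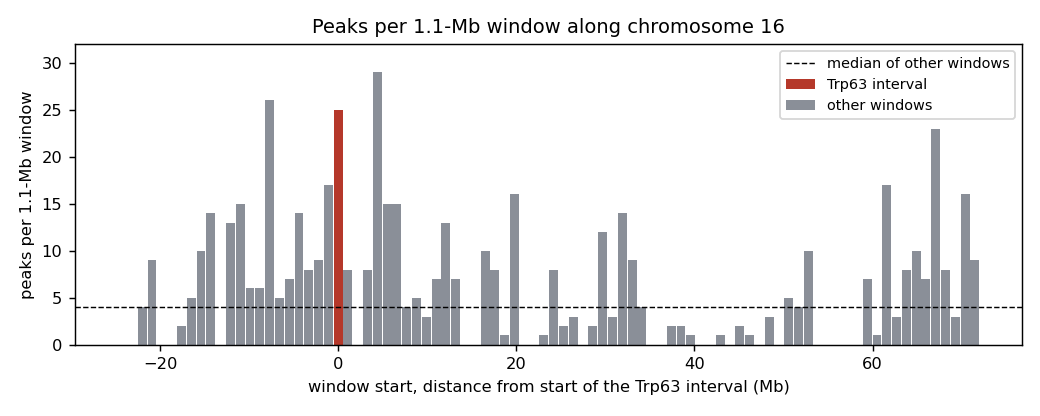
Number of listed Gata6 peaks (y axis) in each 1.1-Mb window of chromosome 16, by the distance of the window's start from the start of the Trp63 interval in Mb (x axis). The red bar is the Trp63 interval with 25 peaks, grey bars are the other 87 windows, and the dashed line is their median of 4. Of the grey bars, 2 are taller than the red one.

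Over the gene itself there were 7 peaks, or 33.3 per Mb, against 18 peaks or 20.2 per Mb over both flanks. The ratio was 1.65 with a 95% interval of 0.706 to 3.85, which includes 1. With this number of peaks, a higher density over the gene than beside it was not shown, and it was not tested. Among name numbers at or below the chromosome median, defined further on, the gene kept 3 peaks and the ratio was 0.908. The upstream flank held 10 peaks (20.8 per Mb) and the downstream flank 8 (19.5 per Mb). With bounds 10 kb wider on each side the gene would hold 8 peaks, since a peak lay 9.57 kb past its rounded end.

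The peaks inside Trp63 were fewest in its first part. Divided into 3 equal stretches of 70 kb, the gene held 1 peak in the first, 3 in the middle and 3 in the last. The single peak of the first stretch, chr16:25725787-25725881, lay 45.8 kb from the gene's start and was the narrowest of the 7, at 95 bp. The next, chr16:25780195-25780346, lay 100.3 kb from the start and was followed after 6.52 kb by chr16:25786714-25786873. These 2 peaks were 152 and 160 bp wide. A further peak stood alone at 121.8 kb, chr16:25801732-25801856, with its nearest neighbour 15.0 kb away.

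The remaining peaks over the gene formed a compact set. They were chr16:25835956-25836070, chr16:25838574-25838733 and chr16:25843836-25844001, at 156.0, 158.7 and 163.9 kb from the start. Their midpoints were 2.64 and 5.27 kb apart, so only the first pair fell within 5 kb. The last of them was 166 bp wide, the largest width in the list, which it shared with 1 other member. Which exons or introns these positions fall in was not determined.

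**Figure D2:**
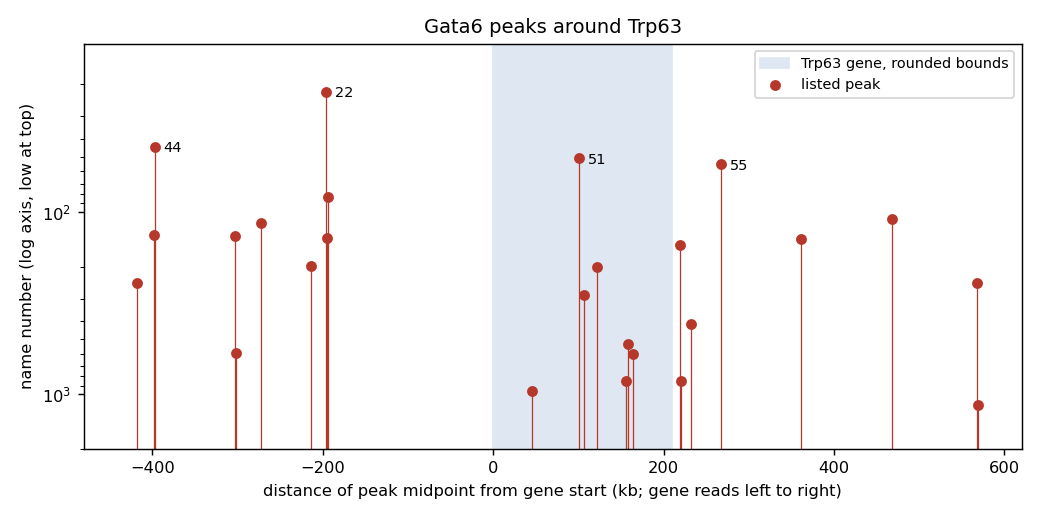
Position of each of the 25 peaks as the distance of its midpoint from the rounded start of Trp63 in kb (x axis) and its name number (y axis, log scale, low numbers at the top), with the gene shaded. Peaks numbered 22 and 44 lie upstream, 51 over the gene and 55 downstream, and no peak lies between -193.6 and 45.8 kb.

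The rounded start of the gene fell in the longest peak-free stretch of the interval. The start of ΔNp63 inside the gene was not placed, so whether peaks lie near it was not determined. No midpoint was listed over 239.4 kb, from chr16:25486344-25486506, which lies 193.6 kb upstream of the start, to the first peak inside the gene. On chromosome 16, 73 of 559 distances between neighbouring peaks (13.1%) were longer, so a stretch of this length was not rare on the chromosome as a whole. Inside the interval, where peaks were denser, the next longest distance was 106.0 kb, and no comparison at equal density was made. Among 11 bins of 100 kb, 2 were empty, both in this stretch, and 2 reached 5 peaks. The full bins were the one that ends 180 kb before the start and the one from 120 to 220 kb after it. The list holds only peaks that passed the authors' processing, so weaker Gata6 signal at the start was not measured.

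**Figure D3:**
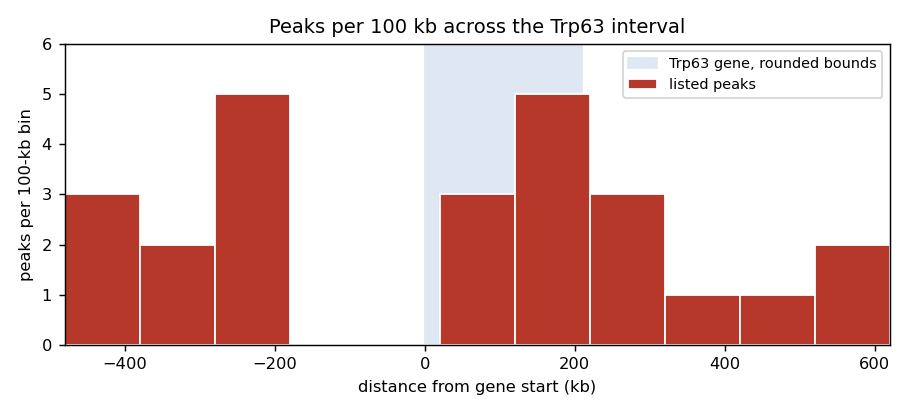
Number of listed peaks (y axis) in each of 11 bins of 100 kb across the Trp63 interval, by distance from the rounded gene start in kb (x axis), with the gene shaded. Bins with 5 peaks stand on both sides of 2 empty bins that reach from 180 kb before the start to 20 kb after it.

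Many of the peaks around Trp63 came in close groups. Such grouping follows in part from the higher density itself, and no comparison at equal density was made. Of the 25 members, 13 (52.0%, 95% interval 33.5 to 70.0) had another listed peak within 5 kb, against 119 of the 535 other peaks of chromosome 16 (22.2%, 18.9 to 26.0). The 13 members formed 6 groups, of which 3 lay upstream, 1 over the gene and 2 downstream. A peak and its neighbour are counted together, so these peaks are not independent and the intervals of such shares are too narrow. Within 1 kb the counts were 6 of 25 (24.0%) and 32 of 535 (5.98%), and within 20 kb they were 19 of 25 (76.0%) and 268 of 535 (50.1%). With peaks less than 1 kb apart merged, the share within 5 kb was 31.8% of 22 members, against 17.0% of 519 other peaks. The 95% interval of the members' share was then 16.4 to 52.7, which includes the share of the other peaks.

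The upstream flank held the largest group. It consisted of chr16:25483995-25484148, chr16:25485357-25485473 and chr16:25486344-25486506, which together spanned 2.51 kb between 195.9 and 193.6 kb before the gene. Chromosome 16 had 6 groups of 3 peaks each within 5 kb of the next, with midpoints spanning 2.01 to 8.35 kb, and no larger group. The one upstream of Trp63 was the second most compact, at 2.35 kb. It ended at the edge of the peak-free stretch described above.

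The other upstream groups were pairs. The closest, chr16:25282299-25282458 and chr16:25282786-25282925, had midpoints 477 bp apart and lay 397.6 and 397.1 kb before the gene. Of all distances on chromosome 16, 4 were shorter. The other pair, chr16:25377191-25377331 and chr16:25377931-25377981, had midpoints 695 bp apart and lay 302.7 and 302.0 kb before the gene. Its second peak was the narrowest member, at 51 bp. Peaks without a near neighbour in this flank were chr16:25261800-25261962, the first member, and chr16:25407270-25407408 and chr16:25465648-25465777.

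Downstream, peaks were sparser farther from the gene. A pair just past the gene, chr16:25899540-25899599 and chr16:25900318-25900455, had midpoints 817 bp apart, 9.57 and 10.4 kb from the rounded end. Its first peak was 60 bp wide, the second narrowest member. It was followed by chr16:25912350-25912508 and chr16:25947303-25947420, at 22.4 and 57.4 kb past the end. Beyond these, single peaks stood at chr16:26041455-26041620 and chr16:26147461-26147623, with distances of 94.2, 106.0 and 100.5 kb between successive midpoints. The last pair, chr16:26247945-26248093 and chr16:26249135-26249284, had midpoints 1.19 kb apart, 358.0 and 359.2 kb past the end.

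The median distance between neighbouring midpoints inside the interval was 19.4 kb over 24 distances (interquartile range 2.32 to 56.3 kb), against 42.5 kb over the 535 other distances of chromosome 16 (14.3 to 116 kb). Of the distances inside the interval 7 (29.2%) were at most 5 kb and 21 (87.5%) at most 100 kb, against 62 (11.6%) and 379 (70.8%) of the others. Inside the gene the median was 10.8 kb (7 peaks), against 18.4 kb in the upstream flank (10 peaks) and 34.9 kb in the downstream flank (8 peaks). These medians leave out the distances that cross the rounded start or end of the gene, among them the longest, of 239.4 kb. Shorter spacing follows in part from the higher density itself, and no measure of spacing at equal density was made.

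**Figure D4:**
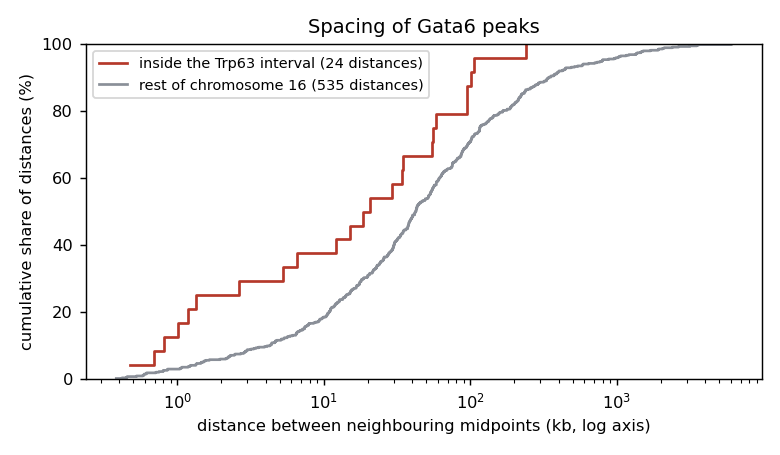
Cumulative share of distances between neighbouring peak midpoints in percent (y axis) by distance in kb (x axis, log scale), for 24 distances inside the Trp63 interval (red) and 535 on the rest of chromosome 16 (grey). The grey line starts first, with 4 distances shorter than any in the interval, and the medians are 19.4 kb for the red line and 42.5 kb for the grey one.

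The median width of the members was 149 bp (interquartile range 125 to 160, range 51 to 166), against 141 bp (120 to 157, range 1 to 166) on the rest of chromosome 16. Of the members 2 (8%) were 83 bp wide or narrower, against 51 of the 535 others (9.53%). At the other end, 8 members (32%) were 160 bp wide or wider, against 109 of the others (20.4%). Medians were 152 bp over the gene, 140.5 bp upstream and 149.5 bp downstream. These are widths of intervals in an overlap list and not of whole binding sites.

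Every peak name joins its chromosome to a whole number, called the name number here. The labels do not say what it counts, so it is described without being read as peak strength. On chromosome 16 listed numbers reach 1573. Members had a median number of 199 (interquartile range 115 to 534, range 22 to 1156), against 342 (158.5 to 679.5, range 1 to 1573) for the rest of the chromosome. The median member stood at the 32.0th percentile of the other peaks' numbers (95% interval of the median 22.4 to 56.8), an interval that includes the middle. With a limit of 200, picked after the values were seen, 14 of 25 members (56.0%) had low numbers, against 171 of 535 other peaks (32.0%). Limits of 147.75 and 300 gave differences in the same direction. Up to 147.75 there were 11 members (44%), against 129 other peaks (24.1%). Up to 300 there were 17 members (68%), against 239 other peaks (44.7%). Limits of 100 and 50 gave no such difference. With numbers up to 100 there were 5 members (20%), against 92 other peaks (17.2%). With numbers up to 50 there were 2 members (8%), against 47 other peaks (8.79%).

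Of the 14 members with numbers up to 200, 12 lay outside the gene, where 18 of all 25 members lay. Upstream of Trp63 8 of 10 peaks had numbers up to 200, with a median of 135.5. Downstream it was 4 of 8, with a median of 199.5, and over the gene 2 of 7, with a median of 534. On the rest of chromosome 16 the share was 32.0%, with a median of 342. The lowest number of any member, 22, belonged to the first peak of the upstream group of 3, whose other members had 140 and 83. None of the other groups of 3 on chromosome 16 contained a lower one. The next lowest were 44 in the closest upstream pair, 51 at 100.3 kb inside the gene and 55 at 57.4 kb past its end. This split by place was made after the values were seen and was not tested.

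Over the gene the numbers were 966, 51, 285, 200, 848, 534 and 600 in order along the strand. The first peak inside the gene thus had the highest of these and the second the lowest. The 3 peaks of the compact set all had numbers above 500. The highest number of any member, 1156, belonged to the last peak of the interval, whose partner 1.19 kb away had 247. Close partners could therefore carry distant numbers, as did the pair just past the gene, with 152 and 849, and the upstream pair 695 bp apart, with 136 and 599.

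Number and width were weakly related, with Spearman's rho of -0.17 over the 25 members and -0.20 over the 535 other peaks of the chromosome. These are descriptions across peaks of 1 list. The 51-bp member had number 599 and the 60-bp member had 152, while the widest, at 166 bp, had 600 and 141.

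**Figure D5:**
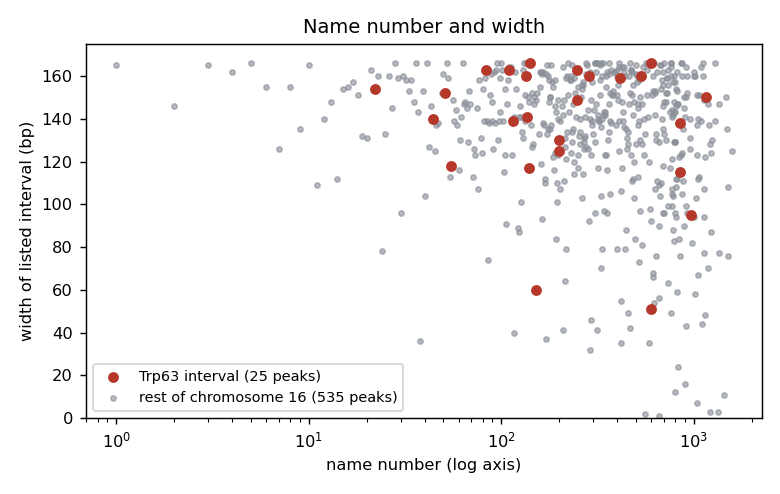
Width of each listed interval in bp (y axis) by name number (x axis, log scale) for the 25 peaks of the Trp63 interval (red) and the other 535 peaks of chromosome 16 (grey). Red points lie within the cloud of grey ones, from number 22 to 1156 and from 51 to 166 bp, and none has a number below 22.

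Read in order of their numbers, the listed peaks of chromosome 16 move to higher positions and then return to lower ones, which gives 68 series within which position rises (median 4.5 peaks each). The 25 members fell into 19 of these series. In 6 series there were 2 members. Their numbers were 135 and 136, 140 and 141, 199 and 200, 246 and 247, 599 and 600, and 848 and 849. A listed peak numbered between 2 such members would also lie between them and be a member itself. That their numbers were consecutive thus follows from how the series were defined, apart from numbers missing from the list. Consecutive numbers did not mean close peaks: the distances between such partners ranged from 64.4 kb for 848 and 849 to 986 kb for 246 and 247. Of these pairs, 199 and 200, 599 and 600, and 848 and 849 each joined a peak over the gene to a peak in a flank.

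The bounds of the interval cut through no close group. The first member lay 61.9 kb inside the lower bound, and the nearest peak outside it, chr16:25149425-25149547 with number 114, lay 50.5 kb before. The last member lay 50.8 kb inside the upper bound, and the nearest peak beyond it, chr16:26351724-26351802 with number 217, lay 51.8 kb after. With both bounds moved outward by 100 kb there were 29 peaks, and with both moved inward by 100 kb there were 20.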

How the data were processed

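Gata6 ChIP-seq was represented by a single deposited list of 12137 intervals that gives nothing for each library. According to the submitters' processing notes, BWA, HOMER and mouse build mm9 were used, with no version or role stated. How the overlap was made, with which threshold and with which controls, is not given here. The score column deposited by the authors is 0 in every row, so it carries no peak strength. Depth per library was not analysed.

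Start and end positions were taken as mm9 and are printed 1-based. Peaks were placed by midpoint in Python 3.11.15 (pandas 2.3.3, NumPy 2.4.6, SciPy 1.17.1) and plotted with matplotlib 3.10.9. On simulated peaks, the peak count, density ratio and median width returned the planted values. At least as many close peaks were counted as had been planted. The other measures were not checked in this way. Wilson intervals at 95% stand beside shares and ratios. They cover counting error and treat peaks as independent, although close peaks may not be. For the share with a near neighbour, peaks are not independent by definition. No difference was tested, since the list has no replicates. Peaks were named singly by their place, their extreme width or number, a neighbour within 5 kb or an edge of the longest peak-free stretch. The interval, the measures and the alternatives were chosen with earlier results of these data known. No genome sequence or annotation of build mm9 was used, so bases, motifs, exons and introns are given for no peak.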

Additional observations from a re-analysis of the deposited data

How the results depend on the processing

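No paired analysis was possible because the list holds no values per replicate, and no library could be left out. Of 54 alternative values, 46 stayed within 1.5 times a count, or within the main value's 95% interval and, for a ratio, on the same side of 1. The density ratio of 3.97 became 6.25 against the median of equal-length windows, and stayed between 3.60 and 5.49 under the other settings. With name numbers up to the chromosome median, the peaks over the gene numbered 3 in place of 7 and the ratio of gene to flanks was 0.908. The share of members with a neighbour within 5 kb was then 29.4%, against 14.8% of other peaks. Its 95% interval of 13.3 to 53.1 includes the share of the other peaks. The members' share was 31.8% with peaks within 1 kb merged, 24.0% within 1 kb and 76.0% within 20 kb, where the distance itself changes it. Windows with fewer peaks were 96.6% on chromosome 16 and 99.2% on all autosomes. The cause of these changes was not tested, except that fewer peaks enter by construction where peaks are filtered or merged. Library depth was not analysed here, and whether it bears on which sites are listed was not tested.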
